A study of Homo sapiens with 102 samples.

Results

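The genes described here encode 3 families of splicing proteins, the heterogeneous nuclear ribonucleoproteins (HNRNP), the serine/arginine-rich splicing factors (SRSF) and the proteins of the small nuclear ribonucleoproteins (SNRP). They were chosen by symbol from a list of 38 genes, and 37 of them were found by Ensembl identifier among the 24965 genes of the count table. These were 17 HNRNP, 9 SRSF and 11 SNRP genes. The remaining gene was not analysed here.

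The libraries came from a small drug screen by Combi-seq, a droplet method in which single K562 cells meet a pair of drugs and a pair of barcode fragments. K562 is an established human chronic myeloid leukaemia line with erythroid features that carries the BCR-ABL fusion kinase. Cells received all 16 ordered pairs of dimethyl sulfoxide (DMSO, the solvent), imatinib (a BCR-ABL inhibitor), trametinib (a MEK inhibitor) and the agent labelled YM115 for 12 h, and the RNA of all droplets of a pair was read as 1 pooled library. The 16 pairs were made in 3 runs of a screen labelled dT and in 3 runs of a screen labelled Bio, in which the drug sources carried the other barcode fragment, and each screen also had 3 DMSO controls prepared outside it. The pair DMSO_DMSO therefore holds solvent in both positions, pairs such as Imatinib_DMSO hold 1 drug, and Imatinib_Imatinib holds the same drug in both positions. The labels number the runs, and the study describes them as independent biological experiments.

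Splicing removes introns from precursor RNA. It is carried out by the spliceosome, whose U1, U2, U4 and U5 particles share a ring of Sm proteins encoded by SNRPB, SNRPD1, SNRPD2, SNRPD3, SNRPE, SNRPF and SNRPG. SR proteins bind exonic enhancers and recruit the spliceosome, and HNRNP proteins coat nascent RNA and often act as silencers of splice sites. Both are abundant nuclear proteins of dividing cells, and many of their transcripts regulate their own levels through alternative splicing.

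The 48 in-screen dT libraries held 127042 to 759756 counts each (median 350752) and the 48 Bio libraries 17882 to 780143 (median 231438). The separate controls held 256671 to 458945 counts in dT and 35742 to 89347 in Bio. The tests used in-screen libraries with at least 1000 genes and at most 15% mitochondrial counts, which left out 4 Bio libraries, all 3 of Imatinib_Imatinib and 1 of DMSO_Trametinib. The fetal globin gene HBG2 had a count in 48 of 48 dT and 46 of 48 Bio libraries, and the erythroid factor GATA1 in 38 and 24. Most erythroid markers were counted less often, with a median over the 10 of 17 of 48 dT and 8 of 48 Bio libraries. The 10 erythroid markers summed to 13122 to 85705 counts per 1000000 counts of a library (CPM) in dT and 0 to 55862 in Bio. Of 7 markers of other lineages, 3 had a count in an in-screen dT library and 5 in a Bio one, each in at most 3 libraries, and their summed level ran from 0 to 307 CPM in dT and 0 to 476 CPM in Bio, with a median of 0 in both. In the separate controls 5 of the 7 were counted in dT (56.7 to 107 CPM in sum) and 2 in Bio (0 to 80.4 CPM). CD3E, MS4A1, LYZ and PECAM1 were at 0 in every in-screen dT library. Because the libraries are pools, fewer cells and less RNA per cell cannot be told apart.

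RefSeq promoters (GRCh38.p14, 250 bases before to 50 after a transcription start) were at hand for 34 of the 37 genes. The promoter of the most often counted gene of each family is shown, at the 5′-most start in the table, to make the kind of sequence visible. Capitals mark the GC box GGGCGG and the ETS core CCGGAA, each read on both strands. HNRNPR lies at chr1:23344235-23344534 on the minus strand, SRSF11 at chr1:70205446-70205745 on the plus strand and SNRPD2 at chr19:45692267-45692566 on the minus strand.
HNRNPR: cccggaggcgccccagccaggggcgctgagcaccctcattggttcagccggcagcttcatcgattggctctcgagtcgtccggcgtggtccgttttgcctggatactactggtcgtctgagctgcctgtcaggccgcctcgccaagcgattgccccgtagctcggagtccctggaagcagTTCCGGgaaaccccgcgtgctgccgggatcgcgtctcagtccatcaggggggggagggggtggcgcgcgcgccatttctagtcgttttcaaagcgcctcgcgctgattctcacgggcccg
SRSF11: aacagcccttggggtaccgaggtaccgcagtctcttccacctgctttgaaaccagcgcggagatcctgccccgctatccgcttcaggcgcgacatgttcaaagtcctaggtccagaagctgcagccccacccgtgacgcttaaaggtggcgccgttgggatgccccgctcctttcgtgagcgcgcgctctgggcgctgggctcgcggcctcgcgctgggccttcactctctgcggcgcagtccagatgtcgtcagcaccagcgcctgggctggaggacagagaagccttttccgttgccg
SNRPD2: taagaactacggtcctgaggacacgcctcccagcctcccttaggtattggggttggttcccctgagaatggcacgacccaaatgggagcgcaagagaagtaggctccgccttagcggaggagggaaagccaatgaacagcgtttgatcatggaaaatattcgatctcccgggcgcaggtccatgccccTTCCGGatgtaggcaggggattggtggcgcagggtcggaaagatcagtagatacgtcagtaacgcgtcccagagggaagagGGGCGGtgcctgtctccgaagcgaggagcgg
The HNRNPR window holds 1 ETS core and 32 CG dinucleotides, the SRSF11 window neither motif and 28 CG dinucleotides, and the SNRPD2 window 1 of each motif and 20 CG dinucleotides. None of them holds TATAAA. SRSF11 has 2 starts, and the window at its other start holds both the GC box and TATAAA. Across the 52 promoters of the 34 genes the median was 28 CG dinucleotides, against 14 over all 35116 promoters. The ETS core was in 32.7% of them against 17.2% of all promoters, the GC box in 53.8% against 45.0% and TATAAA in 13.5% against 11.5%. These matches are descriptions of letters, not of bound sites.

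A count of a member was found in 50.2% of all combinations of member and library in dT and in 26.8% in Bio. In dT 21 of 37 members were counted in at least 50% of the libraries, which is 56.8% of them, against 11.1% of the 19688 genes with any count there. In Bio it was 5 of 37, or 13.5%, against 5.25% of 15784 genes. Within dT, 10 of 17 HNRNP, 6 of 9 SRSF and 5 of 11 SNRP genes reached that share. The members were thus more often seen than the typical gene, and each family ran from genes counted nearly everywhere to genes hardly counted at all.

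**Figure D1:**
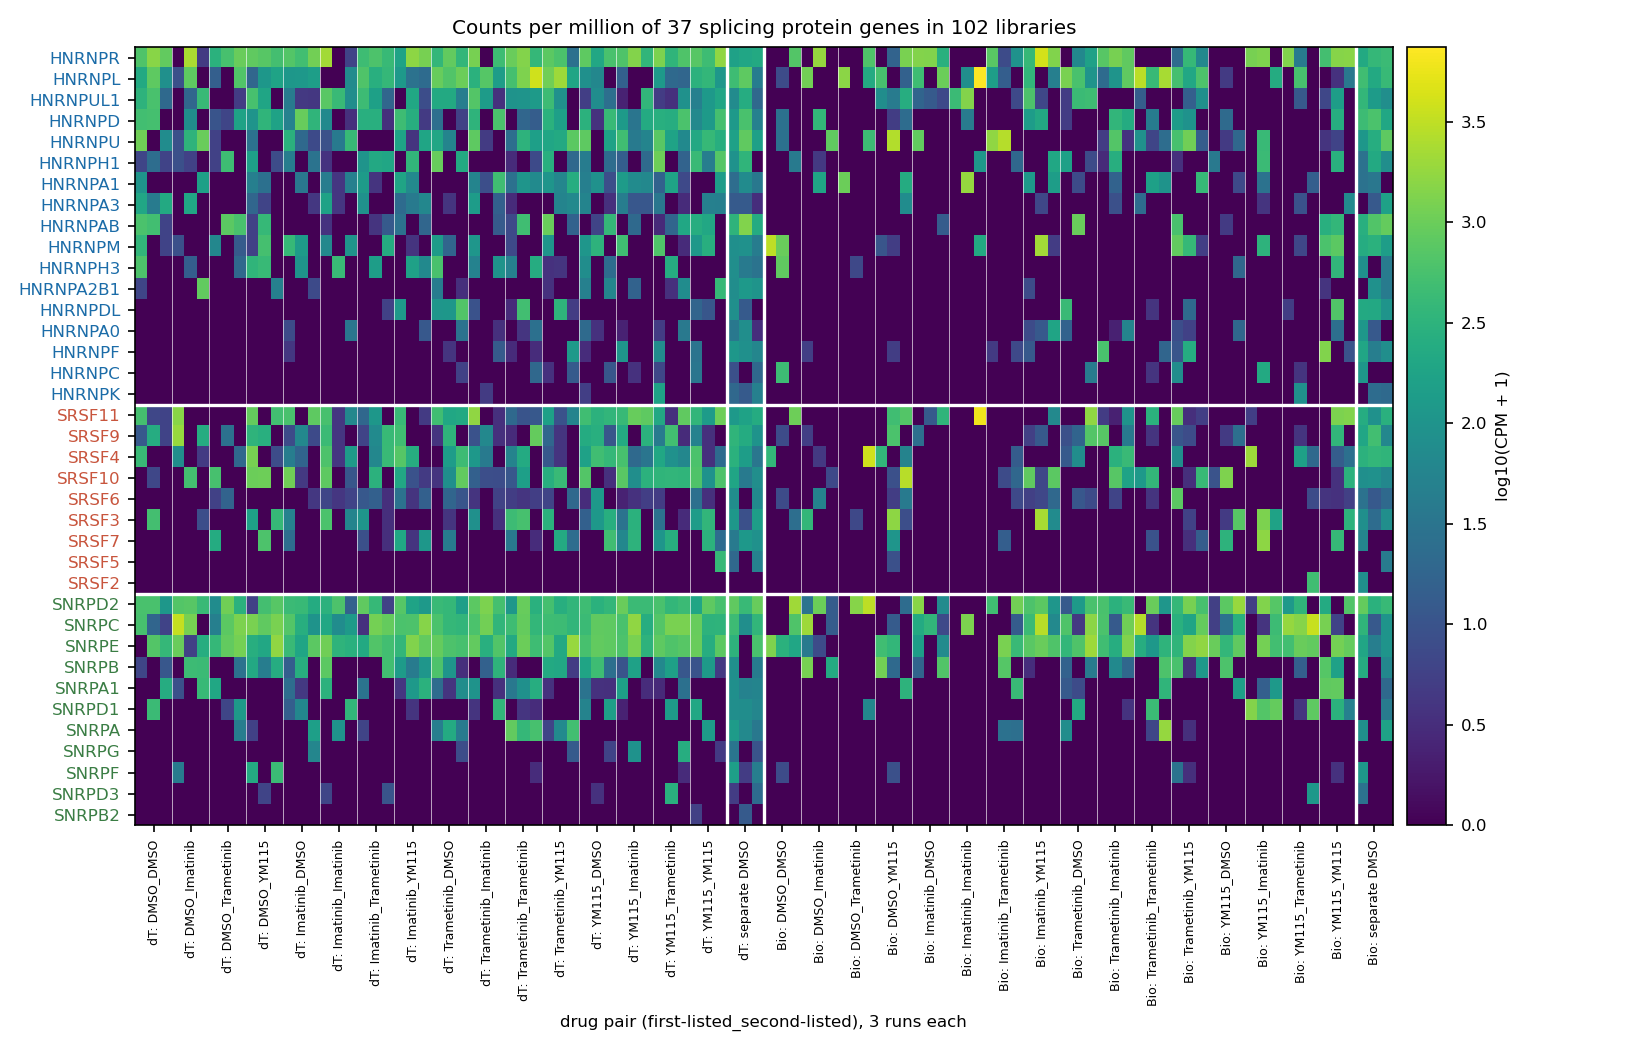
Colour gives log10(CPM + 1) of each of the 37 genes (rows, HNRNP in blue, SRSF in red and SNRP in green type, ordered by the number of dT libraries with a count) in each of the 102 libraries (columns, 3 runs per drug pair, separate DMSO controls between thick lines). SNRPD2, SNRPC and SNRPE are bright across dT, most other rows alternate between 0 and high values, and more of the rows are above 0 in the separate controls.

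Among HNRNP genes, HNRNPR, an RNA-binding protein of the hnRNP complex, was counted in 45 of 48 dT libraries and in 29 of 48 Bio libraries. Its level ran from 0 to 2366 CPM in dT, with a median of 631, while Bio reached 4222 with a median of 63.6 and a lowest value of 0. HNRNPL, which binds CA-rich RNA, was counted in 41 and 31 libraries, with a median of 123 CPM in dT (0 to 3945) and 40.3 in Bio (0 to 7438). HNRNPUL1 was counted in 41 and 20 libraries, and its median was 76.6 CPM in dT (0 to 762) and 0 in Bio (0 to 1434). HNRNPD, which also binds AU-rich elements of unstable messages, was counted in 40 and 15 libraries, with a median of 114 CPM in dT (0 to 927) and 0 in Bio (0 to 365). Every one of these ranges began at 0, so even the most often seen HNRNP transcripts were missed in some libraries of each screen.

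The other HNRNP genes were counted in 3 to 37 dT libraries and in 1 to 21 Bio libraries. HNRNPU, which also organises chromatin, was counted in 37 and 21, and HNRNPA1, HNRNPA3, HNRNPAB, HNRNPH1 and HNRNPM in 25 to 31 and 6 to 14. HNRNPH3 was counted in 20 and 4, and HNRNPA2B1, HNRNPDL, HNRNPA0 and HNRNPF in 10 to 13 and 2 to 11. HNRNPC, a packaging protein of nascent transcripts, was counted in 8 and 6 libraries, and HNRNPK, a poly(C)-binding protein, in 3 and 1. HNRNPA3 is uncertain, because 14 of its pseudogenes held 378 reads beside the 542 of the gene itself, 41.1% of the sum, whereas for all 37 members together pseudogenes held 1.01%.

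Among SRSF genes, SRSF11 was counted in 38 of 48 dT and 18 of 48 Bio libraries, with a median of 123 CPM in dT (0 to 1673) and 0 in Bio (0 to 6096). SRSF9 was counted in 36 and 18 libraries, and its median was 9.20 CPM in dT (0 to 1905) and 0 in Bio (0 to 728). SRSF4 was counted in 35 and 16, with a median of 34.2 CPM in dT (0 to 1194) and 0 in Bio (0 to 3921). SRSF10, which acts as a splicing repressor when dephosphorylated, was counted in 34 and 18, with a median of 12.2 CPM in dT (0 to 1062) and 0 in Bio (0 to 2822). No SRSF gene reached 50% of the Bio libraries.

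SRSF6 was counted in 29 dT and 17 Bio libraries, but with a mean of 7.23 CPM in dT and as a single read in 11 of the 29. SRSF3, which also takes part in RNA export, was counted in 24 and 13 libraries and SRSF7 in 20 and 8. SRSF5 was counted in 1 library of each screen. SRSF2, also known as SC35, had no count in dT, where 3 counts over all 48 libraries would have been 0.182 CPM, and it was counted in 1 Bio library. In GENCODE 29, 46.2% of the exon bases of SRSF9 and 36.7% of those of SRSF2 also belong to exons of other genes, mainly GATC and MFSD11 on the opposite strand, and the strand setting of the counting was not given in the sources used here, so reads of these pairs cannot be told apart.

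The SNRP family held the most evenly counted members. SNRPD2 was counted in 48 of 48 dT and 35 of 48 Bio libraries, and its level in dT ran from 4.54 to 1285 CPM (median 426). SNRPC, the U1 C protein, was counted in 47 and 33 libraries, with a median of 583 CPM in dT (0 to 3432) and 12.5 in Bio (0 to 3508). SNRPE was counted in 47 and 36, with a median of 633 CPM in dT (0 to 1899) and 361 in Bio (0 to 1999). SNRPB was counted in 35 and 20, with a median of 19.8 CPM in dT (0 to 778) and 0 in Bio (0 to 1179). SNRPD2, SNRPC and SNRPE were the only SNRP genes counted in at least 50% of the Bio libraries.

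Other proteins of the same Sm ring were hardly counted. SNRPD1 was counted in 16 dT and 11 Bio libraries, SNRPF in 5 of each, SNRPD3 in 5 and 1, and SNRPG in 7 and 0. Of the particle-specific proteins, SNRPA1 of U2 was counted in 27 and 10, SNRPA of U1 in 15 and 6, and SNRPB2 of U2 in 1 and 0. A total of 0 over the 48 Bio libraries allows SNRPG and SNRPB2 up to 0.261 CPM each, for counting error only, since PCR reads without molecular identifiers are not independent molecules. Counts of tags at the 3′ end were not compared between genes as levels.

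Where a member was counted in a screen library, it was often counted many times. Of the values above 0, 48.5% in dT and 46.2% in Bio were 50 reads or more, and 15.4% and 17.2% were a single read. Over all genes 30.6% and 31.1% were 50 reads or more. In the separate dT controls, which had a like depth, 24.7% of the members' values above 0 were 50 reads or more, beside 8.36% over all genes. In the shallower separate Bio controls it was 2.47% of the members' values, beside 1.59% over all genes. The 3 runs of a drug pair were then compared for each member. Of 592 combinations of member and drug pair in dT, 27.2% had a count in all 3 runs, 23.8% in 2, 21.5% in 1 and 27.5% in none. In Bio 8.11% had a count in all 3 runs and 51.4% in none.

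The summed share of the members was small and overlapped between the screens. It ran from 0.177% to 0.898% of a library's counts in dT, with a median of 0.529%, while Bio spanned 0.0428% to 1.39% around a median of 0.447%. HNRNP genes summed to a median of 0.190% in dT (0.00315% to 0.499%) and 0.174% in Bio (0.000582% to 0.777%). SRSF genes summed to a median of 0.0864% in dT (0.00101% to 0.359%) and 0.0362% in Bio (0% to 0.610%). SNRP genes summed to a median of 0.194% in dT (0.0693% to 0.516%) and 0.163% in Bio (0% to 0.530%). The separate controls lay inside the in-screen range for every family, with a summed share of 0.401% to 0.637% in dT and 0.461% to 0.593% in Bio. The mean log2 CPM over the members, with a prior count of 2, had a median of 4.69 in dT (3.70 to 5.54) and 4.38 in Bio (3.28 to 7.20), and this scale depends on depth where genes are at 0.

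**Figure D2:**
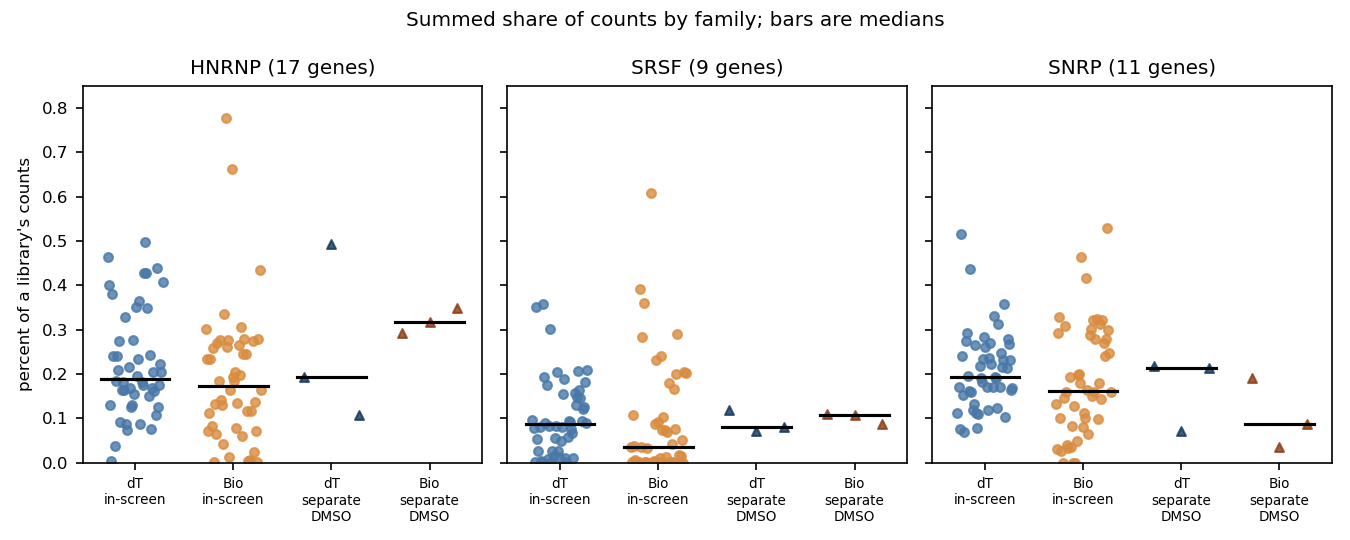
Each point is a library, the vertical axis is the percent of its counts that the family's genes take together, and bars are medians. Medians for HNRNP are 0.190% in dT and 0.174% in Bio, and the separate DMSO controls (triangles) fall inside the in-screen range of each family.

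With and without a drug, the summed share overlapped over most of its range. In dT it was 0.177% to 0.898% with imatinib (median 0.445%, 21 libraries) and 0.188% to 0.853% without it (median 0.568%, 27 libraries). With YM115 it was 0.356% to 0.785% (median 0.568%) and without it 0.177% to 0.898% (median 0.448%). Trametinib gave medians of 0.508% with and 0.538% without it. In Bio the medians were 0.401% with and 0.477% without imatinib, 0.455% and 0.446% for trametinib, and 0.482% and 0.372% for YM115. The SRSF share in dT had a median of 0.130% with YM115 (0.00963% to 0.359%) and 0.0574% without it (0.00101% to 0.350%). No test was made on sums over chosen genes.

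The separate DMSO controls held more of the members than any library of their own screen at the same depth. They had a count of 35, 29 and 33 of the 37 members in dT runs 1, 2 and 3 and of 29, 24 and 28 in Bio, whereas the screen libraries had 10 to 26 in dT (median 19) and 1 to 23 in Bio (median 9.5). At 17882 counts drawn from each library, the depth of the shallowest, the expected number was 20.6 to 25.8 members in the dT controls and 17.6 to 25.8 in the Bio controls. It was 6.40 to 17.4 in the dT screen and 1.00 to 15.8 in the Bio screen, so the groups did not overlap. The same held over all genes, with 2793 to 4355 genes expected in the dT controls and 1073 to 2250 in the dT screen. Mitochondrial counts made up 10.2% to 36.9% of the dT controls and 5.10% to 28.1% of the Bio controls, against 2.71% to 7.33% and 1.62% to 6.87% of the screen libraries, and their part in the difference was not tested.

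**Figure D3:**
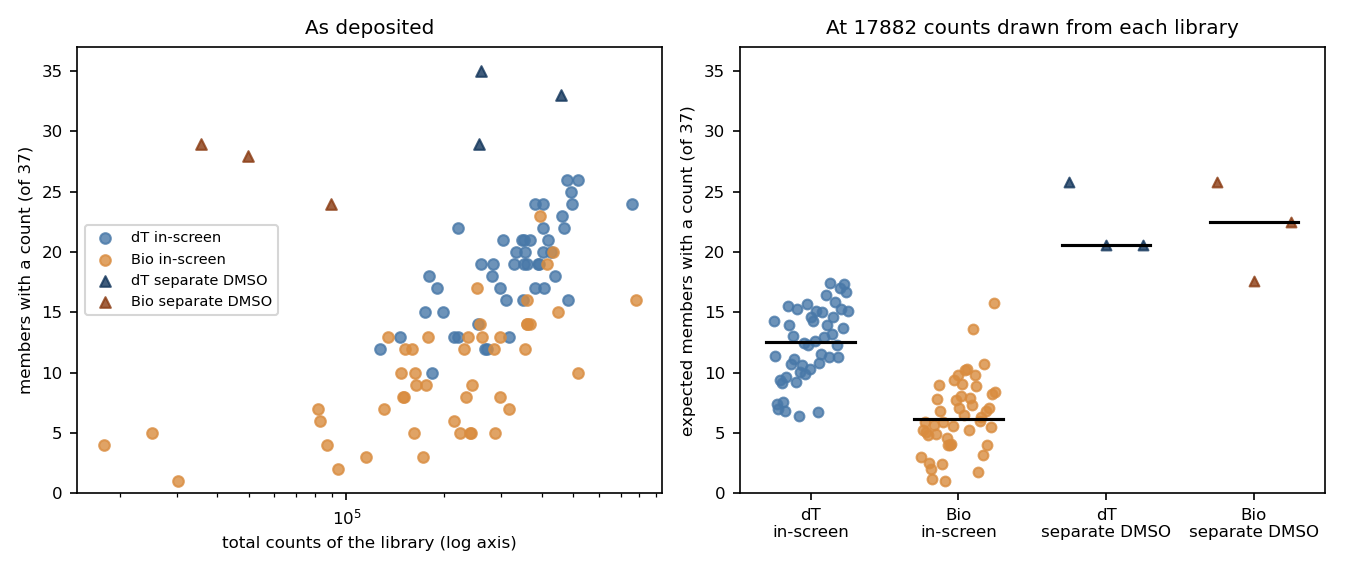
Left, members with a count (of 37) against the total counts of each library on a log axis. Right, the number expected when 17882 counts are drawn from each library, with medians as bars: controls (triangles) sit at 17.6 and above, screen libraries (circles) at 17.4 and below.

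Against the in-screen pair DMSO_DMSO, 24 of the 36 members counted in either dT group were counted in more of the separate runs, and 1 in more of the in-screen runs. In Bio it was 32 of 35 and 0. Those shares, 66.7% and 91.4%, stood beside 81.8% and 87.7% of all genes counted in either group. HNRNPAB, which binds RNA and DNA, had 85, 358 and 110 reads in the separate dT runs and 106, 88 and 1 in DMSO_DMSO. HNRNPR went the other way in level, with 161, 195 and 224 CPM in the separate dT runs and 643, 1531 and 872 CPM in DMSO_DMSO (log2 difference -1.76 ± 1.58, SE, adjusted p = 0.486). SNRPD2 had 852, 417 and 937 CPM in the separate dT runs and 577, 574 and 111 CPM in DMSO_DMSO (1.68 ± 1.31, adjusted p = 0.421). The separate controls were exempt from the limits on genes and mitochondrial counts, which in each screen only the control of run 1 met. In the quasi-likelihood F test of edgeR, adjusted over all genes by Benjamini-Hochberg, 0 of 31 members passed the threshold of 0.05 in dT and 0 of 30 in Bio. The background was 0.116% of 6917 genes and 0.0487% of 6158, 8 and 4 members had an unadjusted p under 0.05, and DESeq2 called SRSF7 in dT and SNRPB in Bio, beside 6.35% and 9.95% of all genes.

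Drug effects were fitted with all pairs of a screen together, each drug counted as present in either position and run as a block. In dT 26 members passed the filter on low counts and 11 did not, and in Bio 17 passed and 20 did not. The 11 were HNRNPA0, HNRNPC, HNRNPF, HNRNPK, SRSF2, SRSF5, SRSF6, SNRPB2, SNRPD3, SNRPF and SNRPG. Across 3 drugs and both screens, 3 calls were made for members, beside 1.37% to 2.88% of all genes called per comparison. For HNRNPAB and SRSF7 a call in both screens was not possible, since neither passed the filter in Bio.

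**Figure D4:**
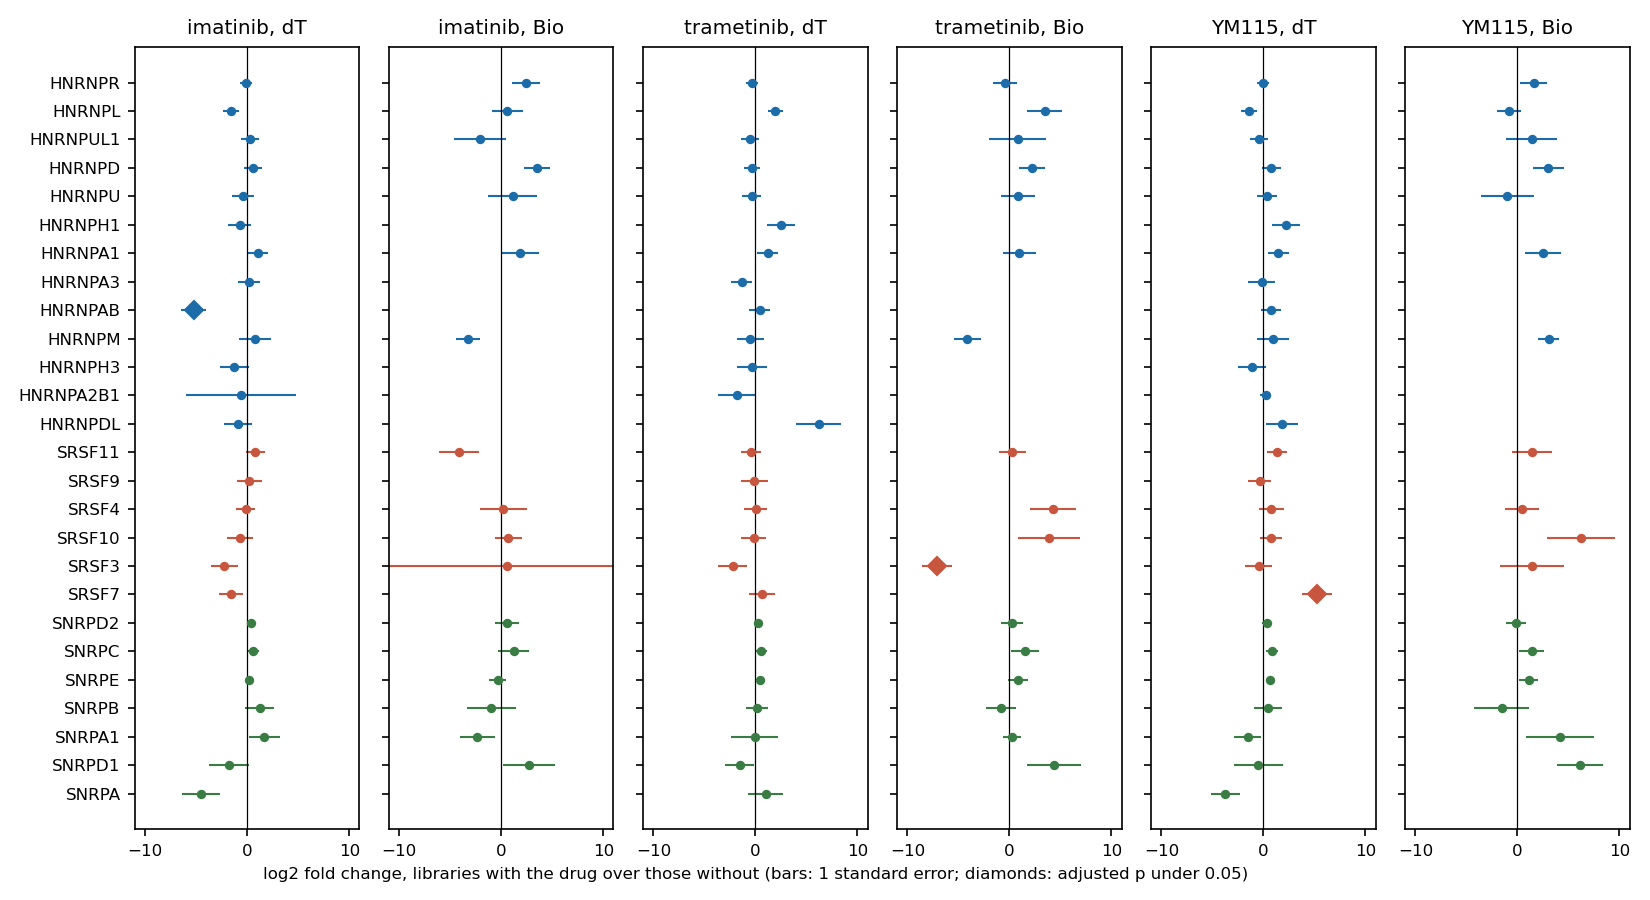
Log2 fold change of each tested member for libraries with a drug over those without it (bars are 1 standard error as implied by the F statistic, 1 bar runs past the axis, and diamonds have an adjusted p under 0.05). Diamonds mark HNRNPAB for imatinib in dT, SRSF3 for trametinib in Bio and SRSF7 for YM115 in dT, and the other estimates fall on both sides of 0.

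HNRNPAB was called lower with imatinib in the dT screen. Without imatinib its level ran from 0 to 972 CPM (median 6.11, 27 libraries), and with imatinib from 0 to 27.5 CPM (median 0, 21 libraries). It was counted in 18 of 27 libraries without the drug, with up to 372 reads, and in 7 of 21 with it, with at most 9 reads, so every high value came from a pair without imatinib although both groups reached 0. The log2 fold change was -5.24 ± 1.23 (SE), with an adjusted p of 0.0131, and the mean was lower with imatinib in each of the 3 runs. This was 1 of 26 members, or 3.85%, beside a background of 2.88% of 3930 genes. The filter asked for 28.5 CPM in dT, which 11 of 27 libraries without imatinib and 0 of 21 with it reached. HNRNPAB thus entered the test through the group where it was high, and its call is no support for a difference. The call was lost without run 1 (adjusted p = 0.0769) and without run 2 (adjusted p = 0.145). In Bio, where the gene did not pass the filter, it was counted in 5 of 26 libraries without imatinib and in 1 of 18 with it.

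Other members did not pass the threshold for imatinib. In dT the next lowest p in each other family belonged to SNRPA (3 of 21 libraries with a count against 12 of 27, log2 fold change -4.50 ± 1.86, adjusted p = 0.225) and SRSF3 (-2.25 ± 1.31, adjusted p = 0.465). The median log2 fold change of the 26 members was -0.13 in dT, with 12 above 0 and 14 below, against 0.07 over all genes tested. In Bio 0 of 17 members were called by edgeR, beside a background of 2.34% of 1754 genes, with 3 at an unadjusted p under 0.05 and HNRNPM called by DESeq2, which called 8.62% of all genes. HNRNPD (3.46 ± 1.28, adjusted p = 0.157), SRSF11 (-4.14 ± 1.99, adjusted p = 0.310) and SNRPA1 (-2.35 ± 1.73, adjusted p = 0.581) had the lowest p of their families. The spread was wide, with SRSF11 at a mean of 28.8 ± 81.1 CPM (SD, n = 18) with imatinib and 300 ± 523 CPM (SD, n = 26) without it.

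SRSF3 was called lower with trametinib in the Bio screen. Without trametinib it ran from 0 to 2285 CPM (median 0, 24 libraries) and with trametinib from 0 to 5.82 CPM (median 0, 20 libraries). It was counted in 11 of 24 libraries without the drug, with up to 454 reads, and in 2 of 20 with it, with at most 2 reads. Most libraries of both groups were at 0, and no library with trametinib exceeded 2 reads. The log2 fold change was -7.08 ± 1.49 (SE), with an adjusted p of 0.00427, as 1 of 17 members or 5.88% beside a background of 1.94% of 1754 genes. The filter asked for 41.9 CPM in Bio, which 8 of 24 libraries without trametinib and 0 of 20 with it reached. SRSF3 too thus entered the test through the group where it was high, and its call is no support for a difference. The call was lost without run 1 (adjusted p = 0.155), and without run 3 the gene did not pass the filter. In dT the same gene was counted in 10 of 21 libraries under trametinib and in 14 of the 27 others (-2.24 ± 1.44, adjusted p = 0.579), and the difference between the screens was -4.88 ± 1.80 with an adjusted p of 0.0959.

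In dT 0 of 26 members were called for trametinib by edgeR, beside a background of 1.37% of 3930 genes, with 2 at an unadjusted p under 0.05 and HNRNPDL called by DESeq2, which called 3.05% of all genes. HNRNPDL, a homologue of HNRNPD, was counted in 9 of 21 libraries with trametinib (0 to 663 CPM) and in 3 of 27 without it (0 to 122 CPM), with a log2 fold change of 6.24 ± 2.21 and an adjusted p of 0.166. As HNRNPDL was counted mostly with trametinib, its DESeq2 call is no support for a difference. SNRPE was among the most evenly counted genes, and its 685 ± 383 CPM (SD, n = 21) with trametinib and 613 ± 428 CPM (SD, n = 27) without it differed by 0.48 ± 0.44 on the log2 scale (adjusted p = 0.760). The median over the 26 members was -0.08 in dT against 0.23 over all genes tested, and over the 17 members in Bio 0.86 against 0.30. HNRNPM in Bio was counted in 4 of 20 libraries with trametinib and 9 of 24 without (-4.14 ± 1.31, adjusted p = 0.0816; without the run as a block -5.56, adjusted p = 0.0220). SNRPC had the lowest p of its family in Bio (1.50 ± 1.38, adjusted p = 0.760). DESeq2 called 4 of 13 members for trametinib in Bio, beside 6.38% of all genes.

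SRSF7 was called higher with YM115 in the dT screen. Without YM115 it ran from 0 to 237 CPM (median 0, 27 libraries) and with YM115 from 0 to 621 CPM (median 23.1, 21 libraries). It was counted in 7 of 27 libraries without the agent, with up to 51 reads, and in 13 of 21 with it, with up to 194 reads, so the groups overlapped. The log2 fold change was 5.27 ± 1.49 (SE), with an adjusted p of 0.0408, and the mean was higher with YM115 in 3 of 3 runs. This was 1 of 26 members, or 3.85%, beside a background of 2.62% of 3930 genes. For SRSF7, 10 of 21 libraries with YM115 and 3 of 27 without it reached 28.5 CPM. It thus reached the filter's level mostly in the group where it was high, and its call is no support for a difference. The call was lost without run 2 (adjusted p = 0.464), without run 3 (adjusted p = 0.290) and without the run as a block (4.23, adjusted p = 0.102). In Bio, where it did not pass the filter, SRSF7 had a count in 6 of 21 YM115 libraries against 2 of 23 others.

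**Figure D5:**
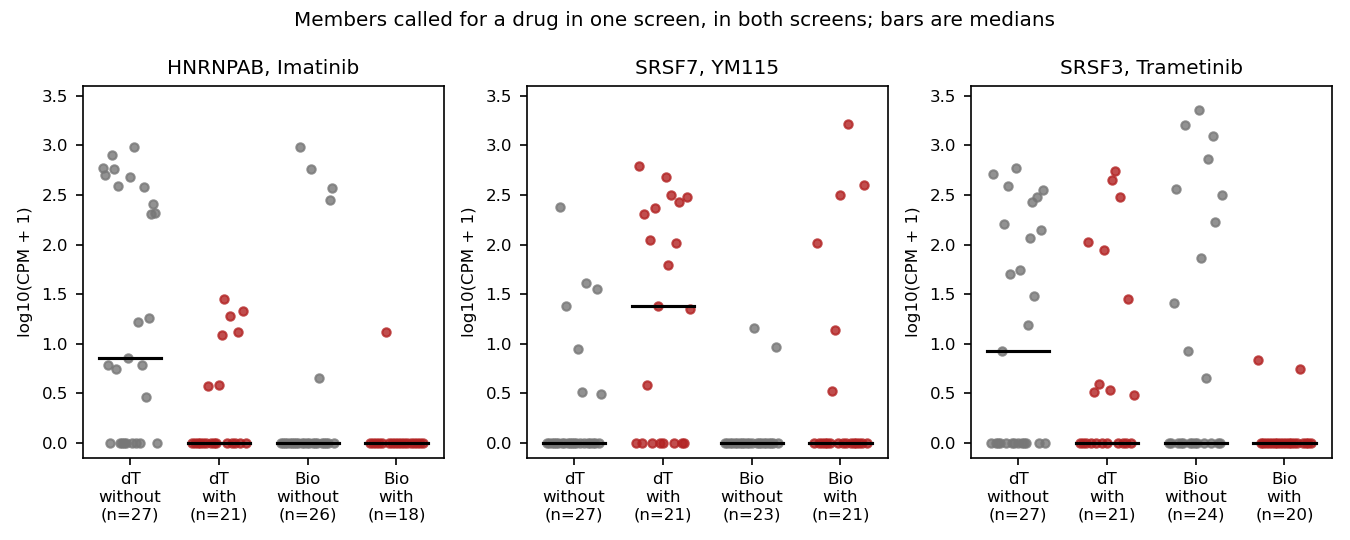
Each point is a passing library, the vertical axis is log10(CPM + 1), and bars are medians for libraries without (grey) and with (red) the drug named. HNRNPAB with imatinib stays at or below 27.5 CPM in dT, SRSF7 with YM115 reaches 621 CPM in dT, and SRSF3 with trametinib stays at or below 5.82 CPM in Bio.

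In Bio 0 of 17 members were called for YM115 by edgeR, beside a background of 2.74% of 1754 genes, with 2 at an unadjusted p under 0.05, while DESeq2 called HNRNPM, SNRPD1 and SRSF10 of 13 members, beside 9.56% of all genes. HNRNPM had a count in 11 of 21 YM115 libraries against 2 of 23 others (3.06 ± 1.04, adjusted p = 0.0951; without the run as a block 4.27, adjusted p = 0.0441). As HNRNPM was counted mostly with YM115, its calls at other settings are no support for a difference. SNRPD1 was counted in 7 of 21 and 4 of 23 (6.10 ± 2.25, adjusted p = 0.132), and SRSF10 in 11 of 21 and 7 of 23 (6.24 ± 3.35, adjusted p = 0.365). The median over the 17 members was 1.42 against 0.53 over all genes tested, and in dT 0.41 over 26 members against 0.21. In dT SNRPA (-3.72 ± 1.41, adjusted p = 0.161) and HNRNPL (-1.43 ± 0.82, adjusted p = 0.441) had the lowest p of their families.

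Libraries were also compared by the position in which a drug was listed, and the members' share of calls was below that of all genes in dT and near it in Bio. In dT HNRNPDL and HNRNPA2B1 were called in the joint test of the 3 position terms (adjusted p = 0.00163 and 0.0192), 2 of 26 members or 7.69% beside a background of 10.7% of 3930 genes. HNRNPDL was counted in 8 of 12 libraries with trametinib first, 3 of 12 with trametinib second and 0 of 12 with DMSO first. HNRNPA2B1, a close relative of HNRNPA1, was counted in 6 of 12 libraries with YM115 first and in 3 of 12 with it second. In Bio 5 of 18 members, or 27.8%, were called beside a background of 21.1% of 2112 genes.

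The 5 were HNRNPUL1 (adjusted p = 0.00436), HNRNPD (0.00546), SNRPD1 (0.00762), HNRNPH1 (0.0400) and SRSF4 (0.0450). HNRNPUL1 was counted in 6 of 9 libraries with imatinib first and in 0 of 9 with imatinib second. SNRPD1 was counted in 7 of 12 libraries with YM115 first and 2 of 12 with YM115 second, and in 0 of 9 with imatinib first and 4 of 9 with imatinib second. HNRNPD was counted in 2 of 12 libraries with YM115 first and 7 of 12 with YM115 second. HNRNPH1 was counted in 5 of 12 libraries with trametinib first and 1 of 11 with trametinib second, and SRSF4 in 1 of 9 with imatinib first and 4 of 9 with imatinib second. Under DESeq2 0 members were called for position in either screen, and leaving out 1 run at a time left 0 to 1 calls in dT (0 without run 2, 1 without run 1 or run 3) and 0 to 2 in Bio (0 without run 1, 2 without run 2 or run 3). Calls over all genes fell as well, to 1.20% in dT and 1.89% in Bio under DESeq2, and to 3.94% to 6.29% in dT and 0.449% to 6.78% in Bio with a run left out. The library depth moved with position, since dT libraries with DMSO first had a median of 194175 counts and those with YM115 first 433582, and its part was not tested. Which libraries lifted the called genes over the low-count filter was not examined for position. Genes counted mostly in a single position may have entered the test through it, so the position calls of both screens are no support for a difference.

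For a pair of drugs beyond the sum of their effects, edgeR made no call of a member. In dT it called 0 of 29 members for each pair, with 5 at an unadjusted p under 0.05 for imatinib x trametinib, 4 for imatinib x YM115 and 2 for trametinib x YM115, beside backgrounds of 0.447%, 0.431% and 0.527% of 6263 genes. In Bio it called 0 of 23 members, with 3, 6 and 7 at an unadjusted p under 0.05 in the same order, beside backgrounds of 0.379%, 0.0292% and 0.525% of 3429 genes. DESeq2 called SRSF10 for imatinib x trametinib in dT, and in Bio HNRNPL, SNRPB and SRSF10, 1 for each pair. Over all genes with an adjusted p DESeq2 called 6.76%, 5.78% and 4.75% in dT and 16.1%, 15.8% and 16.5% in Bio. The lowest adjusted p was 0.122, for HNRNPM under trametinib x YM115 in Bio.

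Nor did edgeR call a member for a drug effect that differed between the screens. It called 0 of 27 members for imatinib, trametinib and YM115, with 6, 5 and 1 at an unadjusted p under 0.05, beside backgrounds of 5.84%, 4.53% and 6.59% of 4705 genes. DESeq2 called 3, 3 and 4 of 25 members, among them HNRNPM for each drug, beside 17.2%, 14.9% and 19.6% of all genes. The others were HNRNPDL and SRSF11 for imatinib, HNRNPDL and SNRPD1 for trametinib, and SNRPA1, SNRPD1 and SRSF10 for YM115.

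Between the screens themselves, 6 of 25 members were called lower in Bio and 0 higher, or 24.0% beside a background of 36.3% of 3874 genes. The screens were separate experiments, so the barcode scheme and other differences between the experiments cannot be told apart. The test set the mean of the 3 Bio runs against the mean of the 3 dT runs. Its error came from the spread of libraries within runs, so variation between runs is not in the SE or p. The median log2 difference was -1.35 over the members and -1.12 over all genes tested. SRSF7 fell by 3.52 ± 0.62 (adjusted p = 7.15e-06), HNRNPH3 by 4.84 ± 0.88 (adjusted p = 1.2e-05), SNRPA by 3.25 ± 0.70 (adjusted p = 0.000130), HNRNPA3 by 3.12 ± 0.78 (adjusted p = 0.000837), HNRNPD by 3.05 ± 0.80 (adjusted p = 0.00150) and HNRNPDL by 2.28 ± 0.67 (adjusted p = 0.00493). Of these, SRSF7, HNRNPH3, SNRPA, HNRNPA3 and HNRNPDL passed the low-count filter of the drug fits in dT but not in Bio. They thus reached the filter's level mainly in dT, where they were high, and their calls are no support for a difference. HNRNPD passed that filter in both screens. HNRNPA3, for example, was counted in 28 of 48 dT and 7 of 48 Bio libraries, with at most 62 and 16 reads. SNRPD2, by contrast, did not differ beyond its error (0.00 ± 0.49, adjusted p = 1.00), and SNRPE gave -0.50 ± 0.42 (adjusted p = 0.381). Without the run as a block, the calls of SRSF7 (adjusted p = 0.265) and HNRNPDL (adjusted p = 0.199) were lost, that of HNRNPDL was also lost without run 3 (adjusted p = 0.271), and that of SNRPA under DESeq2 (adjusted p = 0.221). At 17882 drawn counts the expected number of members had a median of 12.5 in dT and 6.17 in Bio, with overlapping ranges, and the part of depth in the differences of single members was not tested.

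Other splicing genes, from lists of 59 core spliceosome genes and 51 regulators, gave 4 calls for a drug. Among core genes 1 of 33 was called for imatinib in dT, 1 of 33 for trametinib in dT and 1 of 22 for imatinib in Bio, and among regulators 1 of 32 for YM115 in dT, beside the backgrounds of 2.88%, 1.37%, 2.34% and 2.62% of all genes. DHX38, a helicase of the second splicing step, was counted in 7 of 21 dT libraries with imatinib and 5 of 27 without it (6.05 ± 1.57, adjusted p = 0.0228). SNRNP40, a U5 protein, was counted in 7 of 21 dT libraries with trametinib and 2 of 27 without it (5.83 ± 1.29, adjusted p = 0.0127). LSM8, a subunit of the U6-binding ring, was counted in 9 of 18 Bio libraries with imatinib and 0 of 26 without it. EIF4A3, the helicase of the exon junction complex, was counted in 10 of 21 dT libraries with YM115, with up to 208 reads, and in 0 of 27 without it. LSM8, EIF4A3 and SNRNP40 passed the filter on low counts through libraries with the drug alone, so that they could only be tested because they were high there, and their calls are no support for a difference. The core list was counted in 39.4% of its combinations of gene and library in dT and the regulators in 42.7%, against 50.2% for the HNRNP, SRSF and SNRP genes.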

How the data were processed

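Expression was measured by sequencing the 3′ ends of transcripts in 102 libraries of K562 cells, in 34 groups of 3 runs. The deposited file holds raw counts, which the authors made per gene and library; per the submitters' processing notes they used STAR 2.4.2a and GRCh38, and the counting's strand setting is not given in the sources used here. Of the 38 listed genes 37 were found, and 1 was not analysed here. Pseudogenes were counted apart.

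Counts were tested with edgeR 4.0.16 (R 4.3.3), with TMM scaling, the default filterByExpr filter, quasi-likelihood F tests and Benjamini-Hochberg adjustment over all genes tested, at a threshold of 0.05. Standard errors are the log2 fold change divided by the square root of F. DESeq2 1.42.0 was an alternative, as were other scalings, filters, runs left out, all libraries kept, pseudogene counts added and no run block. Groups came from the labels, and in-screen libraries needed at least 1000 genes and at most 15% mitochondrial counts; the separate controls were exempt. CPM are counts per 1000000 counts of a library. The scripts were tested on simulated data.

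The run numbers of the labels were used as a block. Residuals of libraries of the same run had a mean correlation of -0.00721 in dT and -0.00987 in Bio, and those of other runs -0.0279 and -0.0294. The mean was thus slightly higher within a run in both screens, and calls changed when the block was left out. Values are given in full for members past the threshold in any comparison, for the 4 members of each family counted in most dT libraries, and for the member of each family with the smallest p for each drug and screen, and for other splicing genes past the threshold for a drug; other genes named were chosen after their values were seen. The members and lists were chosen with earlier results of these data known. Exon overlaps are from GENCODE 29 and promoters from RefSeq. The values of some marker genes are not reported here.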

Additional observations from a re-analysis of the deposited data

How the results depend on the processing

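Calls of members were few and moved with the settings. Under DESeq2, 1 member was called for trametinib in dT, 1 for imatinib, 4 for trametinib and 3 for YM115 in Bio, 0 for position in both screens, 1 for imatinib x trametinib in dT, 1 for each pair of drugs in Bio, 3, 3 and 4 for imatinib, trametinib and YM115 by screen, and 1 for the separate controls in each screen. Over all genes DESeq2 called 3.05% to 9.56% for the drugs, against 1.37% to 2.88% by edgeR, 1.20% to 1.89% for position, against 10.7% to 21.1%, and 14.9% to 19.6% by screen, against 4.53% to 6.59%. For pairs of drugs DESeq2 called 4.75% to 16.5%, against 0.0292% to 0.527%. For the separate controls it called 6.35% to 9.95%, against 0.0487% to 0.116%. With no filter on low counts the members called were 1 for trametinib in dT, 2 for trametinib and 1 for YM115 in Bio, and 2 for position in Bio. Over all genes 1.07% to 2.59% were then called for the drugs and 3.09% for position in Bio. With genes counted in at least 50% of libraries it was 0 members for YM115 in dT, 0 for trametinib in Bio, 0 for position in both screens, and 1 for Bio against dT. Over all genes 0% to 0.64% were then called for the drugs, 0.866% to 0.914% for position and 8.98% for Bio against dT. With all libraries kept it was 1 for YM115 in Bio, beside 1.37% to 4.75% for the drugs. Leaving out 1 run at a time gave 0 to 1 calls for imatinib and YM115 in dT, trametinib in Bio, position in dT and imatinib by screen, and 0 to 2 for position in Bio. Over all genes 0.354% to 2.47% were then called for the drugs, 0.449% to 6.78% for position and 3.02% to 4.02% for imatinib by screen.

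The pairing by run also mattered: with no replicate block the calls were 0 for YM115 in dT, 2 for trametinib and 1 for YM115 in Bio, 1 and 3 for position in dT and Bio, and 3 and 2 for imatinib and trametinib by screen. Over all genes 1.02% to 2.34% were then called for the drugs, 11.2% to 21.5% for position and 8.71% to 12.4% by screen. The cause was not tested. SRSF3 with trametinib in Bio did not pass the filter without run 3 and gave no value there. No result reversed.

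The median of the mean log2 CPM moved with the prior count, since many values are 0. With a prior of 0.5 it was 3.45 for HNRNP, 3.47 for SRSF, 3.84 for SNRP and 3.57 for all members in dT, and 2.69, 2.4, 3.34 and 2.86 for Bio. It was 5.34 for all members in the separate dT controls, and 6.58 for HNRNP, 5.85 for SRSF and 6.06 for all members in those of Bio. On TMM-scaled totals it was 6.94 for HNRNP in the Bio controls, and 6.62 for SRSF and 6.56 for all members in the dT controls. The other 334 summary values were call counts equal or close to those of the main setting, or levels that stayed within their spread. Direction and side of the threshold were judged only for single members. Of their values 191 kept both where an adjusted p was given, 10 gained a call and 10 lost one. Of the 37 members 11 could not be tested for drugs in dT and 20 in Bio, since they reached the filter's level in too few libraries.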
